A study of Mus musculus with 4 samples.

Results

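A set of 143 protein-coding genes had almost no reads in sorted stem cells of Control mice and clear reads in both libraries of mice whose blood cells lack Cpt1a (KO). They were chosen from 21897 protein-coding gene models by their estimated counts, which had to sum to 3 or less over the Control libraries and reach 20 in each KO library. Of the 156 gene models that met these counts, 13 were left out by name, among them mast cell proteases, CD antigens and histone genes. Because the counts of both groups chose these genes, their values in KO and Control are a description, and no p-value is given for their difference.

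The KO mice carried a floxed Cpt1a allele together with Vav1-Cre, which is active in blood-forming cells and their progeny, and the Control mice, labelled WT, are described in the study as carrying the floxed allele without Cre. All were on a C57BL/6, CD45.2 background, with no substrain named. Whether the groups were genetically matched apart from Cpt1a and Cre was not tested. The labels give the cells as long-term hematopoietic stem cells (ltHSC) of the bone marrow, whereas the study's text speaks of stem and progenitor cells, a wider class. There were 2 KO and 2 Control libraries of polyadenylated RNA, and nothing in the labels says whether each came from a separate animal, so p-values below measure only the spread between these libraries, which may be technical.

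Long-term hematopoietic stem cells sit at the top of blood formation and keep many genes of mature lineages at low levels or off. Progenitors that commit to the B lineage switch on the surrogate light chain and its transcription factors, and progenitors that commit to mast cells switch on amine synthesis, adenosine and cationic peptide receptors. In sequencing of bulk RNA, fewer cells of a type and less RNA per cell cannot be told apart.

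The estimated counts summed to 34083159 and 33909781 in the KO libraries and to 20589218 and 23291747 in the Control libraries, so the KO libraries were the deeper ones. Cpt1a, the deleted gene, was at 11.5 and 19.2 TPM in KO and at 37.0 and 35.6 TPM in Control (TPM is a level scaled for gene length and library depth). Its log2 fold change was -1.60 ± 0.15 (SE), with an adjusted p of 0.00695 in edgeR's quasi-likelihood test, a call that was lost in limma and in edgeR with an offset for transcript length. The 14 markers of long-term stem cells each had reads, with summed levels of 758 and 773 TPM in KO and 720 and 766 TPM in Control, and none of them passed edgeR's test (3 did at an unadjusted p under 0.05, and 2 passed DESeq2 at an adjusted p under 0.05). The unadjusted and DESeq2 counts given for lists have no share over all genes beside them. Of the lists of other lineages, some differed between the groups and some did not. The 14 monocyte, macrophage and dendritic cell markers summed to 592 and 547 TPM in KO and 606 and 570 TPM in Control. Without the genes chosen by the rule, the other B lineage markers summed to 1332 and 1047 TPM in KO and 354 and 495 TPM in Control, the other mast cell markers (Kit and Gata2, also stem cell markers, included) to 584 and 643 TPM in KO and 515 and 423 TPM in Control, and the 16 erythroid markers to 555 and 662 TPM in KO and 1412 and 1351 TPM in Control.

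Of the 143 genes, 137 had no count in either Control library. The other 6 had between 1 and 3 counts over both, namely Panx2 with 2, Zfp960 with 1.12, and Itga3, Cacna1h, AA467197 and Rufy4 with 1 each. Together the 143 genes held 9253 and 8788 counts in the KO libraries, against 4 and 3.12 counts in the Control libraries. Scaled by each library's total, this is 271 and 259 counts per 1000000 (CPM) in KO and 0.194 and 0.134 CPM in Control.

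Most of these genes were low in KO as well. Their mean KO level had a median of 0.915 TPM and ran from 0.075 TPM for Hmcn1 to 22.5 TPM for Gm49391. The median was 23.7 TPM for all 11905 protein-coding gene models with at least 20 counts in both KO libraries, of which the 143 genes are 1.20%. Of the 143 genes, 65 had a mean of at least 1 TPM, 44 had at least 1 TPM in both KO libraries, and 9 had a mean of at least 5 TPM. RSEM's second estimate, TPM from the posterior mean count, was over 2 times as high for 21 of the 143 genes, and its median was 1.21 TPM. It moved most for Ank2 (25.7 TPM, against 1.59 TPM), Kcnq1 (16.1 TPM, against 1.18 TPM) and Cacna1i (2.06 TPM, against 0.18 TPM), so the KO levels below hold for TPM from the expected counts. The smaller of the KO counts had a median of 31 and lay between 20 and 39 for 99 genes, and 13 genes had at least 100 counts in both KO libraries.

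**Figure D1:**
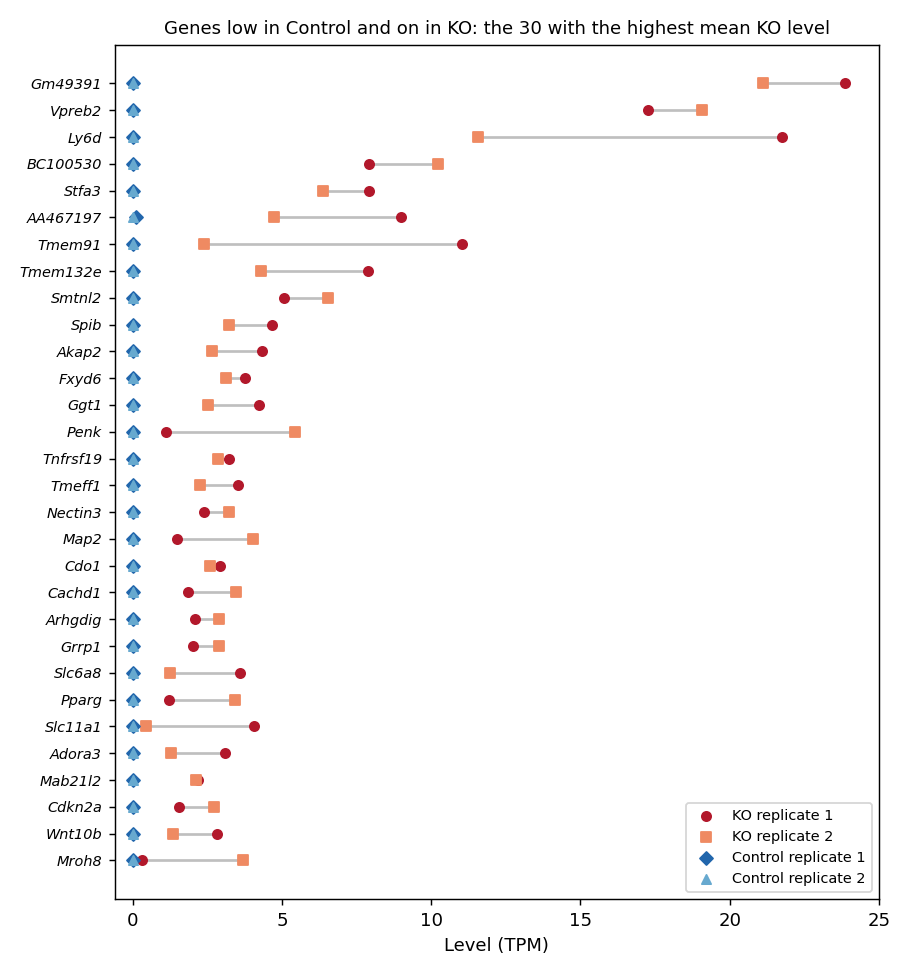
The level in TPM (x axis) of the 30 genes with the highest mean KO level (y axis), with 1 point for each KO and each Control library and a grey line joining the KO libraries. The KO points of Gm49391, Vpreb2 and Ly6d lie above 11 TPM, and the Control points lie at 0 except that of AA467197 in replicate 1, at 0.12 TPM.

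The start regions of 5 genes are shown, 4 from the immune groups and that of Tmem132e, the gene with most counts. Each of these regions holds the motif marked in it, so they are examples and do not show how often the motifs occur. Each is the 300 bases from 250 before to 50 after the RefSeq transcription start on GRCm38.p6, written on the strand of the gene. Capitals mark 1 searched motif, which was CAGCTG (an E-box bound by E2A in B lineage cells) for Vpreb2, AGATAA or its reverse complement TTATCT (bound by GATA factors) for Il5ra, Adora3 and Stfa3, and CACGTG (an E-box bound by MITF and MYC) for Tmem132e. The CAGCTG motif, left in lower case there, also occurs in the Il5ra and Adora3 regions. Among immune genes not shown, AGATAA was absent from the regions of Mrgprb2, Tph1 and Ddc and present in regions of Nlrp3 and Txk. CAGCTG was absent from the Spib region.
Vpreb2: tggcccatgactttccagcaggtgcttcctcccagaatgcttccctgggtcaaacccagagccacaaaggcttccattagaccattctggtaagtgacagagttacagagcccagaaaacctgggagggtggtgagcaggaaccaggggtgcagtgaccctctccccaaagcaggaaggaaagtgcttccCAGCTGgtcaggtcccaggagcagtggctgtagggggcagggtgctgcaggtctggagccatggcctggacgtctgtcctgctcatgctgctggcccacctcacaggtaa
Il5ra: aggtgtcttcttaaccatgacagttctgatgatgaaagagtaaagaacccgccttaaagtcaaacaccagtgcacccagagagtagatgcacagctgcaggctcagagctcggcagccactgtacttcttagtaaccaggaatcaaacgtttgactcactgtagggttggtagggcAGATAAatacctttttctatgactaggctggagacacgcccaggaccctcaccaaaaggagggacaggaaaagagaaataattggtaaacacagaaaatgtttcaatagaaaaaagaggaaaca
Adora3: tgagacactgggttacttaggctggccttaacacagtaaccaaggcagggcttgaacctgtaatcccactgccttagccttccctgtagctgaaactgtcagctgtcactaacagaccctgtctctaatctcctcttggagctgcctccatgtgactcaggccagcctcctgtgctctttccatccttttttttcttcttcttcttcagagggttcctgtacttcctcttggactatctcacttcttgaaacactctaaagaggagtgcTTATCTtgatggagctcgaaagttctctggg
Stfa3: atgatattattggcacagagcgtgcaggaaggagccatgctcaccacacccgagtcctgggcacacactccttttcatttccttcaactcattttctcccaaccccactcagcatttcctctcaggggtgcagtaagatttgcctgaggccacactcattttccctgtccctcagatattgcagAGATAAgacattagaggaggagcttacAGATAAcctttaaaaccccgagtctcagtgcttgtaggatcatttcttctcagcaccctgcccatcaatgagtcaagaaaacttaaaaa
Tmem132e: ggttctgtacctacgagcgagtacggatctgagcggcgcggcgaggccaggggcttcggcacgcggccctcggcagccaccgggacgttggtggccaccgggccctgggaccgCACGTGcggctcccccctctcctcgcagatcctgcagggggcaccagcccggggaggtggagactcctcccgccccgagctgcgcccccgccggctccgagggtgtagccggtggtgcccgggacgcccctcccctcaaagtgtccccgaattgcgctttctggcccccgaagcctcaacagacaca
They lie at chr16:17980315-17980614 on the plus strand, chr6:106748988-106749287 on the minus strand, chr3:105904171-105904470 on the plus strand, chr16:36455343-36455642 on the minus strand and chr11:82388650-82388949 on the plus strand. The Tmem132e region held 72.3% G and C bases and the Vpreb2 region 58.7%, and their observed over expected CpG ratios were 0.794 and 0.0388. Stfa3 had 2 matches to the GATA motif and the other 4 regions 1 match each to the motif shown.

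RefSeq start regions were matched to 105 of the 143 genes, 22 of them with several, which gave 137 regions, and were set beside 21126 regions of other protein-coding genes. The base composition was close, with a median of 59% G and C bases in the 137 regions and 56.3% in the others, and a CpG ratio of at least 0.6 in 42.3% and 47.7%. On both strands, CAGCTG was found in 17.5% of the 137 regions and 15.6% of the others, AGATAA in 8.76% and 9.66%, and CACGTG in 7.30% and 7.84%. GAGGAA, the core bound by PU.1 and SPIB, was found in 32.1% and 27.4%, TGTGGT (RUNX factors) in 12.4% and 15.0%, and TATAAA (the TATA box) in 9.49% and 12.6%. GGAATG (TEAD factors) was found in 12.4% and 13.6%. These shares are descriptions and were not tested, and regions of 1 gene can overlap.

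Of the 6 lymphocyte genes, 4 had a mean of at least 1 TPM in KO. Vpreb2, a part of the surrogate light chain of the pre-B cell receptor, was at 17.3 and 19.1 TPM in KO and at 0 in both Control libraries. Ly6d, a surface protein that marks lymphoid progenitors biased to the B lineage, was at 21.7 and 11.6 TPM in KO and at 0 in both Control libraries. Spib, an Ets family transcription factor of B cells and plasmacytoid dendritic cells, was at 4.68 and 3.24 TPM in KO and at 0 in both Control libraries. The 2 KO libraries were thus close for Vpreb2, while Ly6d was higher in KO replicate 1. Against a floor of 3 counts over the Control group, CPM in KO was 94.6-fold for Vpreb2, 84.1-fold for Ly6d and 82.0-fold for Spib. These folds come from the counts that chose the genes, and the floor covers counting error only, so they are not lower bounds. The other 3 lymphocyte genes were lower. Cxcr5, the chemokine receptor that guides B cells to follicles, was at 0.56 and 1.22 TPM in KO. Lta, the cytokine lymphotoxin alpha, was at 1.36 and 0.88 TPM, and Txk, a Tec family kinase of T cells, at 0.81 and 0.18 TPM. Vpreb2 shares 50.5% of its sequence, as runs of 31 bases, with Vpreb1, so its count depends in part on how shared reads were divided.

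Other B lineage genes that the rule did not choose were tested over all genes. Of 18 such markers, 12 were higher in KO and none was lower with an adjusted p below 0.05 and no fold limit, where 0.451% of the 14635 genes tested were called higher and 0.212% lower at this limit in edgeR. Their median log2 fold change was 2.76, against 0.01 for all genes. Rag1, which cuts antigen receptor genes for rearrangement, was at 18.4 and 15.2 TPM in KO and 2.73 and 1.97 TPM in Control (log2 fold change 2.80 ± 0.23 SE, edgeR adjusted p = 0.00506). Vpreb3, a protein that binds immunoglobulin chains in B cell precursors, was at 87.9 and 85.0 TPM in KO and 3.07 and 3.41 TPM in Control (4.68 ± 0.41 SE, edgeR adjusted p = 0.0061). Both genes were thus above 1 TPM in both Control libraries, unlike the chosen ones. Over all lists 19 genes were higher in KO, and this count was 7 without KO replicate 1, 11 without KO replicate 2, 41 with DESeq2, 1 with limma on log2(TPM + 1), and 0 in edgeR once an offset for transcript length was added (41 there at an unadjusted p under 0.05). Mzb1, described below, is 1 of the 19. Of 13 markers of T, NK and innate lymphoid cells 2 were higher, Tcf7 and Gzmb, and none was lower, and Gzmb is also in the mast cell list. Of 7 plasma cell markers only Mzb1 passed, and it meets the counts of the rule itself, which fixes its direction. The median log2 fold change of the 7 was -0.37, and 5 of them had a negative value. None of 14 Ets family genes other than Spib passed edgeR's test (2 at an unadjusted p under 0.05, 2 by DESeq2).

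The group of mast cell and innate immune genes held 17 genes, of which 12 had a mean of at least 1 TPM and 12 had more counts in KO replicate 2. BC100530 and Stfa3, stefin A genes that encode inhibitors of cysteine proteases, were the highest. BC100530 was at 7.92 and 10.2 TPM in KO and Stfa3 at 7.90 and 6.37 TPM, with 0 in both Control libraries. Both lie on chromosome 16, 82.8 kb apart, and 49.3% of the sequence of BC100530 occurs in other gene models. The Stfa3 levels rest on only 30 and 24 counts, since its transcript is short. AA467197, the mouse counterpart of a small mitochondrial protein of epithelia and immune cells, was at 8.99 and 4.72 TPM in KO, with 0.12 TPM in Control replicate 1 and 0 in Control replicate 2. None of 3 other stefin and cystatin genes passed edgeR's test (0 at an unadjusted p under 0.05, 0 by DESeq2).

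Genes known from mast cells were present at lower levels. Mrgprb2, the mouse mast cell receptor for cationic peptides and drugs, was at 1.43 and 2.28 TPM in KO. Adora3, the adenosine A3 receptor, was at 3.09 and 1.27 TPM, and RSEM's posterior SD of its count was 19.6% of the mean in KO replicate 2. Tph1, the tryptophan hydroxylase of serotonin synthesis outside the brain, was at 0.89 and 0.94 TPM. Ddc, the decarboxylase of the following step in serotonin and dopamine synthesis, was at 0.50 and 1.76 TPM on 20 and 23 counts. Tph1 was nearly equal between the KO libraries, and Adora3 was higher in replicate 1. Il5ra, the receptor subunit that binds interleukin-5 and drives eosinophil growth, had 38 and 107 counts and was at 0.78 and 2.18 TPM. Among mast cell markers that the rule did not choose, 3 of 17 were higher in KO and none was lower. The median log2 fold change of the 17 was 0.31, with 5 below 0, and Kit was at 0.07 and Hdc, the histidine decarboxylase of histamine synthesis, at -0.45. Siglech, also in the monocyte, macrophage and dendritic cell list, was 1 of the 5, at -1.445. Mrgprb1 and Cma2 had 0 counts in both Control libraries and could enter the test only through their KO counts. Cpa3, a mast cell carboxypeptidase, was at 90.5 and 116 TPM in KO and 32.2 and 18.8 TPM in Control (log2 fold change 1.99 ± 0.27 SE, edgeR adjusted p = 0.0227). Cyp11a1, the enzyme that makes pregnenolone from cholesterol, was at 10.2 and 21.6 TPM in KO and 1.79 and 1.49 TPM in Control (3.72 ± 0.56 SE, edgeR adjusted p = 0.0324). Gzmb, a granule protease of cytotoxic lymphocytes and mast cells, was at 13.3 and 24.4 TPM in KO and 1.53 and 2.21 TPM in Control (3.29 ± 0.52 SE, edgeR adjusted p = 0.0396). The calls of these 3 were lost in limma and with the length offset, that of Gzmb also without KO replicate 1 and without KO replicate 2, and that of Cyp11a1 without KO replicate 2.

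The remaining genes of the mast cell and innate immune group were receptors, sensors and transporters. The group name does not make each of them, such as Tnfrsf19 and Eda2r, particular to immune cells. Tnfrsf19, a receptor of the TNF receptor superfamily, had 289 and 257 counts and was at 3.23 and 2.85 TPM in KO. Slc11a1, a metal ion transporter of phagosomes, was at 4.05 and 0.44 TPM and Rufy4, which promotes autophagy in dendritic cells, at 0.65 and 1.89 TPM. These are neighbours on chromosome 1, 227 kb apart, and were higher in opposite KO libraries. Il1r2, the decoy receptor of interleukin-1, was at 1.39 and 2.02 TPM and Gpr25, an orphan receptor, at 1.36 and 2.37 TPM. Nlrp3, an inflammasome sensor, was at 0.28 and 0.95 TPM, Tlr5, the sensor of flagellin, at 0.42 and 0.65 TPM, Clec4a1, a C-type lectin, at 0.64 and 0.76 TPM and Eda2r, a receptor of ectodysplasin, at 0.38 and 0.61 TPM. None of 14 other lymphotoxin and TNF superfamily genes (2 at an unadjusted p under 0.05, 2 by DESeq2), of 7 other interleukin-1 receptor genes (2 at an unadjusted p under 0.05, 1 by DESeq2) and of 10 other adenosine receptor and purine genes (2 at an unadjusted p under 0.05, 2 by DESeq2) passed edgeR's test.

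**Figure D2:**
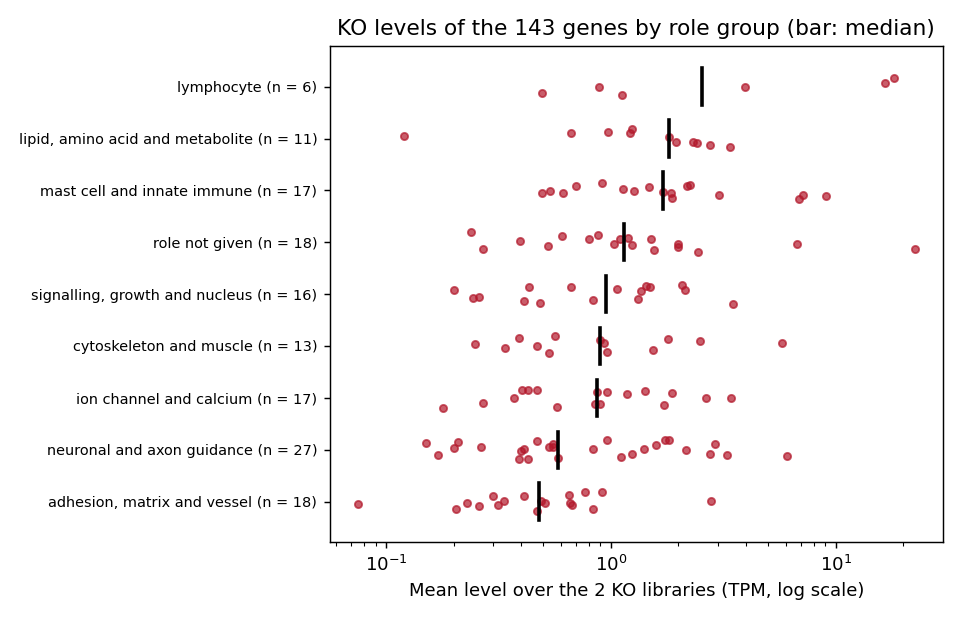
The mean level over the 2 KO libraries in TPM (x axis, log scale) of each of the 143 genes, by role group (y axis), with a black bar at the group's median. The medians run from 0.48 TPM for adhesion, matrix and vessel genes to 2.54 TPM for the 6 lymphocyte genes, and every group holds genes under 1 TPM.

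Metabolic genes numbered 11, with a median of 1.82 TPM in KO, and 8 of them had a mean of at least 1 TPM. Handling of cysteine and glutathione was represented by 3. Ggt1, which cleaves extracellular glutathione, was at 4.24 and 2.53 TPM in KO and at 0 in both Control libraries. Cdo1, the dioxygenase that oxidizes cysteine, was at 2.91 and 2.60 TPM in KO and at 0 in both Control libraries. Cth, the lyase that makes cysteine from cystathionine, was at 2.82 and 0.82 TPM in KO and at 0 in both Control libraries. In KO, Cdo1 had 27 and 66 counts and Cth 39 and 31. The order of the KO libraries for Cdo1, and the size of their gap for Cth, thus differed between counts and TPM. Of 23 other genes of transsulfuration and cysteine metabolism none passed edgeR's test (5 at an unadjusted p under 0.05, 4 by DESeq2), with a median log2 fold change of -0.11, against 0.01 for all genes. Lipid and retinoid genes were Pparg, the nuclear receptor of fat cell formation, at 1.23 and 3.42 TPM, and Ffar4, a receptor of long-chain fatty acids, at 0.87 and 1.62 TPM. Aldh1a3, which makes retinoic acid, was at 2.28 and 1.63 TPM and Rdh1, a retinol dehydrogenase, with 29 and 89 counts. The others were Hmgcll1, a lyase of ketone body formation, Abhd3, a phospholipase, Slc6a8, the creatine transporter, and Slco5a1, of the organic anion transporter family, between 0.12 TPM (Slco5a1) and 2.42 TPM (Slc6a8) on average.

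Among 17 genes of ion channels and calcium handling, 6 had a mean of at least 1 TPM. Fxyd6, a regulator of the sodium pump, was at 3.76 and 3.12 TPM in KO and at 0 in both Control libraries. Cachd1, a modulator of voltage-gated calcium channels, was at 1.85 and 3.47 TPM in KO and at 0 in both Control libraries. The order of the KO libraries differed between these genes. For Cachd1 it also differed between scales, with 38 and 20 counts. The T-type calcium channels Cacna1h and Cacna1i had 46 and 32 counts and 39 and 36 counts in KO. Cacna1h had 1 count over the Control libraries and Cacna1i none. Other calcium genes were Itpka, which phosphorylates inositol trisphosphate, Camk1g, a calmodulin-dependent kinase, Jph4, a junctophilin, Car8, which binds the inositol trisphosphate receptor, and Pkd2l2, of the polycystin family. Chloride and potassium channel genes were Ano1, Clic6, Cftr and Kcnq1. Gjc1, a connexin, Panx2, a pannexin, Cnnm1, of a family of magnesium transport proteins, and Tmc7, of a channel-like family, completed the group, and the 13 genes other than Fxyd6, Cachd1 and the T-type channels had mean levels of 0.27 to 1.88 TPM. None of 29 other calcium channel and release genes (5 at an unadjusted p under 0.05, 5 by DESeq2) and of 20 other calcium sensors and calmodulin kinases (4 at an unadjusted p under 0.05, 2 by DESeq2) passed edgeR's test. Of 11 other potassium and sodium channel genes Kcng1, a modifier subunit of potassium channels, was higher, at 14.3 and 16.5 TPM in KO and 4.41 and 5.21 TPM in Control (log2 fold change 1.64 ± 0.24 SE, edgeR adjusted p = 0.0309). This call was lost without KO replicate 1, without KO replicate 2, with the length offset and in limma.

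Neuronal and axon guidance genes were the most numerous, with 27 genes and a median of 0.585 TPM in KO, and none had a count in Control. Tmem132e, a transmembrane protein needed for hearing, had the most counts of all 143 genes, 563 and 403, at 7.89 and 4.30 TPM in KO and 0 in both Control libraries. Its CPM was 208-fold that of the Control floor, which covers counting error only. Penk, the precursor of enkephalin peptides, was at 1.11 and 5.45 TPM in KO and at 0 in both Control libraries. Penk was higher in KO replicate 2, with 32 and 61 counts, and the gap was wider in TPM than in counts.

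Peptide and signal genes of this group were Cpe, which trims neuropeptides, Pcsk5, which cleaves proproteins, Crhbp, which binds corticotropin-releasing hormone, and Tmeff1, a transmembrane protein with follistatin domains. Guidance genes were Ntn1, the ligand netrin-1, Sema4f, a semaphorin, Plxnb3, a semaphorin receptor, and Flrt1, an adhesion protein. Ntn1 had 100 and 25 counts, the widest gap of these 4. Cytoskeletal genes were Map2, which binds microtubules in dendrites, Kif5c, a kinesin, Ank2, an ankyrin, Ttll11, which adds glutamate chains to tubulin, and Frmpd1, a scaffold protein. Synaptic genes were Ppfia3, a liprin, Elfn1 and Shisa7, which act on neurotransmitter receptors, Lingo3, a leucine-rich repeat protein, Trim9, a ubiquitin ligase, and Ptprr, a tyrosine phosphatase. Nova1, a splicing factor, Mab21l2, a gene of eye development, Nrep, a neuronal regeneration protein, Grk1, a kinase of G protein-coupled receptors, Olfr523, an odorant receptor, and Tmem151b, whose role is not given here, completed the group. Of 16 neuronal markers, 10 were at 0 in all 4 libraries, among them Rbfox3, Snap25, Syt1 and Stmn2. Without Map2 and Nova1, which the rule chose, the list summed to 2.63 and 5.78 TPM in KO and 0.37 and 0.70 TPM in Control. With these genes included, the KO sums were 6.03 and 10.4 TPM. Syp, a synaptic vesicle protein, had 83 and 23 counts in KO and 7 and 0 in Control, just outside the rule. None of 20 other axon guidance genes passed edgeR's test (1 at an unadjusted p under 0.05, 1 by DESeq2).

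Adhesion, matrix and vessel genes numbered 18 and were the lowest group, with a median of 0.48 TPM in KO. Nectin3, an immunoglobulin-like adhesion molecule, was at 2.39 and 3.22 TPM in KO and at 0 in both Control libraries. Dcbld1, a transmembrane protein, was at 0.92 and 0.91 TPM in KO and at 0 in both Control libraries. Nectin3 was the only gene of the group with a mean of at least 1 TPM. Cell surface genes also included Itga3, a laminin-binding integrin subunit, Cdh23, a cadherin of the inner ear, Pcdhga8, a protocadherin, Scara3, a scavenger receptor, and Lrrc15, a leucine-rich repeat protein. Matrix genes were Eln, elastin, Col19a1, a collagen, Hmcn1, hemicentin, Megf6, with EGF repeats, and the metalloproteases Adamts9 and Adamts20. Junction and vessel genes were Cgnl1, Dlg5 and Amotl1, which sit at cell junctions, Esm1, a proteoglycan of endothelial cells, and Flt4, the receptor of VEGF-C in lymphatic vessels. Flt4 had 111 and 80 counts, at 0.77 and 0.55 TPM. Of the other lymphatic endothelial markers Prox1, Lyve1, Ccl21a and Reln were at 0 in all 4 libraries, and Mmrn1, a multimerin also made by megakaryocytes, was at 18.25 and 19.95 TPM in KO and 18.7 and 14.2 TPM in Control. None of 9 other nectin-like genes (0 at an unadjusted p under 0.05, 0 by DESeq2) and of 7 other VEGF receptor and ligand genes (1 at an unadjusted p under 0.05, 1 by DESeq2) passed edgeR's test.

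Genes of the cytoskeleton and muscle numbered 13, and none had a count in Control. Smtnl2, a smoothelin-like protein, was at 5.07 and 6.53 TPM in KO and at 0 in both Control libraries. Arhgdig was at 2.09 and 2.89 TPM in KO and at 0 in both Control libraries. Both were higher in KO replicate 2 in TPM, but Smtnl2 had 290 counts in replicate 1 and 186 in replicate 2. Actin regulators were Cobl and Fmn1, which nucleate filaments, Arpin, which inhibits the Arp2/3 complex, and Inka2, which inhibits a Pak kinase. Muscle genes were Smpx and Myom2, a myomesin. Chaperones were Hspb8, a small heat shock protein, and Hspa12a, of the Hsp70 family. Krt87, a hair keratin, Mtcl1, which crosslinks microtubules, and Strip2, of the striatin-interacting complex, were the others, and apart from Smtnl2 and Arhgdig the group lay at 0.25 to 1.80 TPM on average. Of 15 muscle markers 5 were at 0 in all 4 libraries, among them Acta1, Acta2 and Des. Ttn, titin, had 12 and 44 counts and Ryr2, a calcium release channel, 17 and 14 counts in KO, both with 0 in both Control libraries. The 4 tested muscle markers had a median log2 fold change of 3.56, with none passing edgeR's test. Genes at 0 in Control can enter the test only through their KO counts, so nothing is read from this median. Without Myom2, which the rule chose, the muscle list summed to 15.3 and 2.51 TPM in KO and 7.8 and 7.91 TPM in Control. None of 3 other small heat shock genes passed edgeR's test (0 at an unadjusted p under 0.05, 0 by DESeq2).

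Signalling, growth and nuclear genes numbered 16. Akap2, which anchors protein kinase A, had 441 and 411 counts at 4.33 and 2.64 TPM in KO and 0 in both Control libraries. Cdkn2a, which encodes the cell cycle inhibitor p16 and the p53 activator p19Arf, was at 1.56 and 2.72 TPM in KO and at 0 in both Control libraries. Akap2 shares 60.1% of its sequence with the read-through model Pakap, so the division of reads between them bears on its count. With RSEM's posterior mean count, Akap2 no longer met the Control limit of the rule. Wnt10b, a Wnt ligand, had 102 and 31 counts, Errfi1, an inhibitor of EGF receptors, 106 and 73, and Zswim5, a zinc finger protein, 114 and 162. Further genes were Fstl3, which binds activin, Heyl, a Notch target, Tead1, a transcription factor of the Hippo pathway, Rprm, a p53 target that arrests the cell cycle, Sertad4, and Lnx1, a ubiquitin ligase of Numb. The spindlin family members Spin2c and Spin4, Sycp2, of the synaptonemal complex, Trim66, a chromatin reader, and Zfp960, a zinc finger gene, were the rest. Of 6 other CDK inhibitor genes none passed edgeR's test (1 at an unadjusted p under 0.05, 0 by DESeq2). Of 26 other genes of the Wnt list, Lef1 and Tcf7, both nuclear partners of beta-catenin, were higher in KO. Lef1 is also in the B lineage list and Tcf7 in the T cell list. Both calls were lost in limma, with the length offset and without KO replicate 2, and that of Lef1 also without KO replicate 1.

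For 18 genes no role is given. Gm49391 had the highest level in TPM from expected counts (by the posterior mean count Ank2 was higher), 23.9 and 21.1 TPM in KO and 0 in both Control libraries, but 100% of its sequence also occurs in other models, mostly in Ctla2b. With RSEM's posterior mean count, Gm49391 no longer met the Control limit of the rule. Tmem91 was at 11.0 and 2.40 TPM in KO and at 0 in both Control libraries. The KO libraries were close for Gm49391, while Tmem91 was higher in KO replicate 1. The others were Gm20458, Gm20696, Gm16867, Gm19684, Gm4707, 4933408B17Rik, 6430571L13Rik, BC024063, Grrp1, Tmem233, Fam149a, Fam198a, Mroh8, Ccdc33, Casc1 and Lrrc3, with means of 0.24 to 2.45 TPM. In all, 10 of the 143 genes share at least 50% of every transcript with other models. Those not yet described so are Gm20458, Gm16867, Zfp960, BC024063, Gm19684, Pcdhga8 and Krt87, and their counts are uncertain to that extent. For 127 genes the shared part of the least shared transcript was under 10%.

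The KO libraries did not weigh alike for every gene. Counts were higher in KO replicate 1 for 72 genes, in KO replicate 2 for 66, and equal for 5. CPM differed over 2-fold between the KO libraries for 28 genes (19.6%). The same was true of 29.6% of 1473 other genes in the same range of mean KO count (23.5 to 190) and of 5.14% of all other genes with at least 20 counts in both KO libraries. In TPM 40 genes differed over 2-fold, and for 25 genes RSEM's effective length, the length it divides by, did. Mroh8 had 24 counts in each KO library, effective lengths of 3201 and 267 bases, and 0.31 and 3.69 TPM. Ank2 had 29 and 26 counts and 0.22 and 2.95 TPM, and Ano1 had 20 and 44 counts and 0.19 and 3.56 TPM. In these genes the KO libraries differed less in counts than in TPM.

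**Figure D3:**
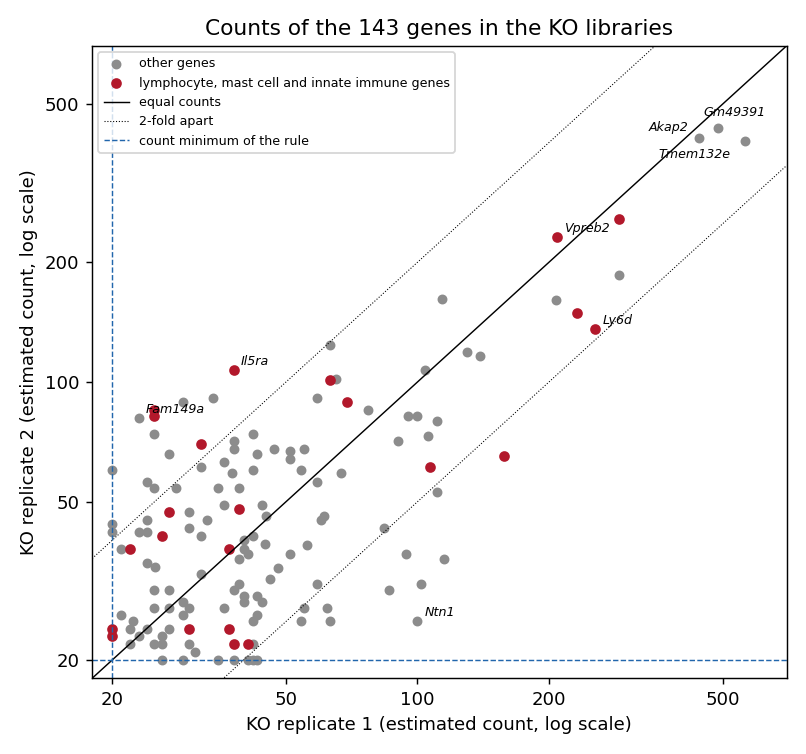
Estimated counts of the 143 genes in KO replicate 1 (x axis) and KO replicate 2 (y axis), both on log scales, with lymphocyte, mast cell and innate immune genes in red and the count minimum of 20 as dashed lines. Most points crowd between 20 and 100 on both axes, while Tmem132e, Gm49391 and Akap2 lie above 400 on both.

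The limits of the rule cut through a dense region. Among the genes just inside it, Ddc had 20 and 23 counts, Clec4a1 20 and 24, and Kif5c 29 and 20 in KO. Just outside it, Tubg2, a gamma tubulin, had 32 and 19.1 counts, Ikzf3, a lymphocyte transcription factor, 19 and 71, and Lgr5, an R-spondin receptor, 94 and 19 in KO, all with 0 in both Control libraries. Nat14 (43 and 49 counts in KO, 4 and 0 in Control), Slc4a4 (101 and 50 in KO, 0 and 5 in Control) and Gm6710 (87.3 and 125 in KO, 0 and 5.64 in Control) missed it by their Control counts. Genes on either side of the limits thus differed by a single count or a few.

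The rule was met by 143 genes, and the mirrored rule, with 3 counts or less over the KO libraries and at least 20 in each Control library, by 18. With every library scaled to the total of the smallest, 64 genes met the rule, all of them among the 143, and 14 met the mirrored rule. With a minimum of 100 counts as deposited the numbers were 13 and 1, and with 10 counts they were 271 and 29. The rule was thus met by more genes than the mirrored rule at each minimum and on both scales, and the gap narrowed with scaling. Of the 18 genes, 3 are named here, chosen after their values were seen. They are Cacna1g, a T-type calcium channel of the same family as Cacna1h and Cacna1i, at 0 counts in both KO libraries and 60 and 21 in Control, and Ptgs2, an enzyme of prostaglandin synthesis, at 1 and 0 in KO and 21 and 222 in Control. Nnt, the mitochondrial transhydrogenase, is the third and had the most counts, with 0 in both KO libraries and 898 and 838 in Control, for 1 of its gene models. Whether the KO and Control mice carried the same Nnt allele was not tested.

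**Figure D4:**
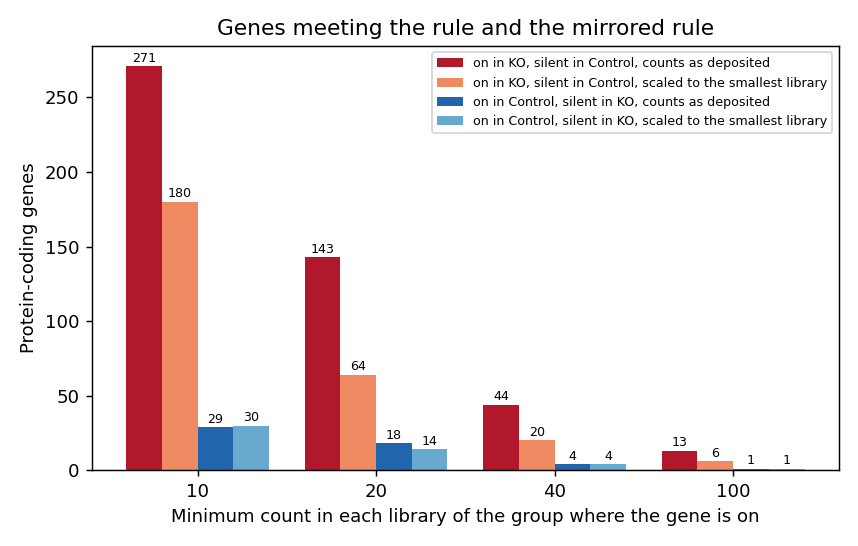
Number of protein-coding genes (y axis) that met the rule (on in KO, silent in Control) and the mirrored rule (on in Control, silent in KO) by minimum count (x axis), with counts as deposited and scaled to the smallest library. At a minimum of 20 the bars stand at 143 and 64 for the rule and at 18 and 14 for the mirrored rule.

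Genes at 20 or more counts in 1 library and 0 in another also occurred within groups. Of the genes with at least 20 counts in KO replicate 1, 375 of 12490 had 0 in KO replicate 2, and 171 of 12336 (1.39%) the other way round. In Control it was 281 (2.38%) for replicate 1 and 401 (3.36%) for replicate 2. Counts of 1 to 5 were rare, with 187 and 106 protein-coding genes in the KO libraries and 80 and 93 in the Control libraries, against 1532 and 1410 in KO and 1492 and 1433 in Control at 20 to 99 counts. At 6 to 19 counts there were 791 and 402 genes in KO and 408 and 473 in Control. The classes differ in width, so their totals cannot be compared directly. The reads carry no molecular identifiers, and the part of depth and of other cell types in the 143 genes was not tested.

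**Figure D5:**
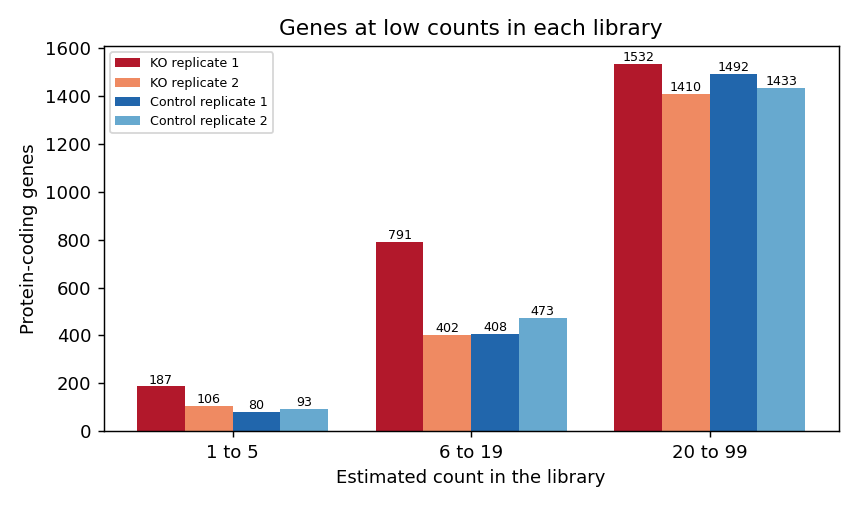
Number of protein-coding genes (y axis) with an estimated count of 1 to 5, 6 to 19 and 20 to 99 (x axis) in each KO and Control library. The lowest class holds 187 genes at most, and the highest holds over 1400 in every library.

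In the edgeR test over 14635 genes, 58 (0.396%) passed as higher in KO, with an adjusted p below 0.05 and more than a 2-fold change, and 6 of the 143 genes were among them, namely Akap2, Gm49391, Smtnl2, Tmem132e, Tnfrsf19 and Vpreb2. DESeq2 called 286 genes higher (1.84% of 15508), of which 72 were among the 143. The rule used the same contrast, so nothing is read from these counts. Among lists of other cell types, 7 of 14 erythroid markers and 1 of 12 neutrophil markers, Elane, were lower in KO at this p with no fold limit. In either direction, 13 erythroid and 7 neutrophil markers had an unadjusted p under 0.05 in edgeR, and 12 and 3 passed DESeq2. Of the 12 neutrophil markers 11 had a negative log2 fold change, with a median of -0.62. They summed to 6373 and 6546 TPM in KO and 11910 and 8167 TPM in Control. The erythroid markers with the smallest p were Ermap (25.5 and 22.4 TPM in KO, 84.9 and 70.7 TPM in Control), Car1 and Car2. The 8 lower list genes became 4 without KO replicate 1, and 0 with the length offset (32 at an unadjusted p under 0.05) and in limma (28 at a pseudocount of 1). Of 6 stromal markers Pdgfrb was higher, at 32.4 and 30.4 TPM in KO and 11.5 and 13.9 TPM in Control, a call lost without KO replicate 1, with the length offset and in limma. None passed edgeR's test among 14 monocyte, macrophage and dendritic cell markers (1 at an unadjusted p under 0.05, 1 by DESeq2), 7 megakaryocyte markers (1 at an unadjusted p under 0.05, 1 by DESeq2), 9 blood endothelial markers (2 at an unadjusted p under 0.05, 2 by DESeq2) and 11 class I PI3K genes (5 at an unadjusted p under 0.05, 3 by DESeq2), nor among 1 lymphatic endothelial, 4 muscle, 2 neuronal, 4 epithelial and 2 germline markers (0 at an unadjusted p under 0.05 and 0 by DESeq2 in each). Over all 14635 genes, edgeR gave 357 higher and 195 lower at an unadjusted p under 0.05 with more than a 2-fold change. The share with no fold limit, as used for the lists, is not given, and neither is that of DESeq2. The list counts at an unadjusted p and by DESeq2 thus have no background beside them. The 143 genes were spread over 19 autosomes and the X chromosome, with 2 genes on chromosome 12 and 14 on chromosome 7.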

How the data were processed

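RNA was measured in 2 KO and 2 Control libraries made from polyadenylated RNA with a directional kit. Per the submitters' processing notes, STAR and RSEM were run on the mm10 build. Versions, annotation and strand setting were not stated in them or in the paper's methods. The authors deposited, per gene model, RSEM's expected count (estimated, not normalized, with shared reads divided among models), TPM (scaled for length and library), TPM from the posterior mean count, and the posterior SD of the count, a signal in counts. GENCODE M21 gave symbols and biotypes to 55141 of 55401 gene models, and 260 had none.

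Genes were chosen by the count limits of 3 and 20 given in the report. The genes, their role groups and the gene lists were chosen with earlier results of these data known. Roles were assigned after the values were seen. All genes were named. Values in every library were given for the 12 highest by mean KO TPM, the 2 highest of each role group and the genes nearest the limits, and further values were picked after they were seen. From the lists, up to 3 genes with the smallest p were named, except for a result that is not reported here.

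Rounded expected counts were tested with edgeR 4.0.16 (R 4.3.3, glmQLFit with robust estimation, TMM, filterByExpr), which left 14635 genes, with Benjamini-Hochberg adjustment, two-sided. The biological coefficient of variation was 0.471. The script was run on simulated data with less spread than these libraries, so that run does not show how the test performs here. Alternatives used DESeq2 1.42.0 and limma 3.58.1. Folds used a floor of 3 counts over the Control group (0.0684 CPM, counts scaled to a library total of 1000000), which covers counting error only. Sequence sharing was counted as 31-base runs of GENCODE M21 transcripts. The replicate numbers did not pair the samples by the labels.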

Additional observations from a re-analysis of the deposited data

How the results depend on the processing

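The count of 143 genes moved to 64 with counts scaled to the smallest library total, to 271 with 10 or more counts in each library and to 44 with 40 or more. It was 379 without KO replicate 1, 346 without KO replicate 2, 274 without Control replicate 1 and 356 without Control replicate 2. The 18 genes of the mirrored rule became 29 with 10 or more counts and 4 with 40 or more, and 28 to 95 without 1 library. RSEM's posterior mean count gave 141 genes, 140 of them among the 143.

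Of 14635 genes, edgeR called 58 higher and 26 lower in KO, 6 of them among the 143. The numbers were 286, 179 and 72 with DESeq2, 3, 1 and 0 when RSEM's effective lengths entered edgeR as an offset, 5, 0 and 0 in limma on log2(TPM + 1), and 0, 0 and 0 with limma on log2(TPM + 0.1). At an unadjusted p under 0.05 these were 346, 270 and 77 with the offset in edgeR, 407, 271 and 56 with limma at a pseudocount of 1, and 445, 270 and 85 at 0.1. With no filter on low counts, 59 were lower and 10 of the 143 were called. In the lists, 19 genes, Mzb1 among them, were higher and 8 lower. These became 41 and 30 with DESeq2, 0 and 0 with the offset, 1 and 0 with limma at a pseudocount of 1, 0 and 0 at 0.1, and 13 lower with no filter. At an unadjusted p under 0.05 the list genes were 41 and 32 with the offset, 45 and 28 with limma at 1, and 41 and 30 at 0.1. When 1 library was left out, the genes called ranged over 24 (without KO replicate 1) to 184 (without Control replicate 2) higher and 17 to 115 lower, the calls among the 143 over 3 to 12, and the list genes over 7 to 31 higher and 4 to 23 lower. These fits assume that the lone library of a group varies like the other group. The cause of these moves was not tested.

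With the replicate number as a block, edgeR called 54 genes higher and 30 lower in KO, 17 list genes higher and 9 lower, and 4 of the 143. The deviations of the 2 numbers correlated at -0.0239 across genes, with only 2 pairs, so the numbers were not taken to pair the samples.

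Of 16 genes made up of Cpt1a and those named from the lists, 16 kept their call with DESeq2, with RLE size factors, with no filter, with the block and without either Control library, 11 without KO replicate 1 and 11 without KO replicate 2, 1 in limma at a pseudocount of 1, and 0 at 0.1 and with the offset. None of the 16 changed direction under these settings, but the direction of Mzb1, 1 of them, is fixed by the counts of the rule. With TPM from the posterior mean count, 3 of the 20 genes whose KO levels were recomputed moved by over 1 SD, and 21 of all 143 genes were over 2 times as high. Leaving out 1 of 2 KO libraries cannot move a mean by 1 SD, so it tests nothing here. Depth limits the silent genes. By counting error alone, a count of 0 allows up to 3 counts, which is 0.0880 and 0.0885 CPM in the KO libraries and 0.146 and 0.129 CPM in the Control libraries.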

Other observations

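The counts of the rule were also met by 65 gene models that are not protein-coding, chiefly 22 TEC loci (provisional models), 14 lincRNAs and 9 antisense RNAs. Mcpt-ps1, a mast cell protease pseudogene on chromosome 14, had 66 and 131 counts in KO and 0 in both Control libraries. Gm13378, a processed pseudogene, had the highest level, 26.6 and 19.9 TPM in KO and 0 in both Control libraries. Scarna2, a small RNA of Cajal bodies, was at 7.54 and 12.6 TPM in KO and 0 in both Control libraries. Gm18853, an unprocessed pseudogene, had 357 and 460 counts in KO and 0 and 2.40 in Control. These were chosen after their values were seen, and reads of a pseudogene and its parent gene can be divided between them.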
